A study of Mus musculus with 4 samples.

Results

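Residual thymocytes were the T-lineage cells that were still present in thymic cell suspensions after CD45-positive cells had been depleted. They were defined here by a rule on unique molecular identifier (UMI) counts, which count captured mRNA molecules. Only cells in which over 1000 genes were detected and mitochondrial UMIs stayed below 20% were kept. Among these, a member had at least 1 UMI of Ptprc, at least 2 UMIs summed over Cd3e, Cd3g and Lck, and 0 UMIs each of Epcam, Pdgfra and Pecam1. The rule found 54 members among 10245 kept cells (0.527%), from 13981 called barcodes. Some members carried few UMIs of T-cell genes and mRNA of other lineages, so membership alone does not establish a T-lineage cell.

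The cells came from thymi of 6-month-old C57BL/6 mice, with 2 libraries of the wild-type genotype, which the labels call mock and which are written here as WT 1 and WT 2, and 2 libraries homozygous for the LacZ allele of Foxn1, written as Z/Z 1 and Z/Z 2. The mice were otherwise untreated, and the study describes the allele as hypomorphic, that is, with reduced and not absent function. Thymi of several mice were pooled, digested, depleted of CD45-positive cells on magnetic columns, treated to lyse red cells, and sorted by flow cytometry. The labels contradict themselves on the sex of the mice, and do not say whether the 2 libraries of a genotype came from separate pools, so p-values measure the spread between libraries only. The number of residual thymocytes in such a suspension also depends on digestion, depletion and sorting, and these cannot be told apart from genotype with 2 libraries a group.

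T-cell development takes place in the thymus, where bone-marrow-derived progenitors pass through a stage with neither CD4 nor CD8, a stage with both (double-positive), and a stage with only 1 of them. Double-positive cells carry the recombination enzymes Rag1 and Rag2 and test newly made alpha beta T cell receptors on cortical epithelium, and most die there. Foxn1 is the transcription factor that thymic epithelial cells need to support these steps. It is an epithelial gene, and the members had 0 Foxn1 UMIs in all 4 libraries. In called cells with an Epcam UMI, Foxn1 was at 78.2 and 83.3 CPM (UMIs of the gene per 1000000 UMIs of the cells summed) in WT 1 and WT 2 and at 44.6 and 58.9 in Z/Z 1 and Z/Z 2.

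The 4 genes that chose the members are given as a description. Ptprc, which encodes CD45 itself and lies at chr1:138062861-138175708 (GRCm38, minus strand), had 208, 89, 35 and 46 UMIs over the members of WT 1, WT 2, Z/Z 1 and Z/Z 2. The highest value in a member was 34 UMIs, and 2, 5, 0 and 6 members had only 1. Cd3e and Cd3g encode signalling chains of the T cell receptor complex and lie with Cd3d on chromosome 9, between 44969572 and 45009627. Lck encodes the kinase that starts receptor signalling. Summed over Cd3e, Cd3g and Lck, the medians of the members were 8, 4, 2 and 3 UMIs in the same order, with a highest value of 23. At the edge of the rule, 2, 6, 3 and 5 members had exactly 2 of these UMIs, and 5, 17, 2 and 19 cells had exactly 1 and passed otherwise.

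Members were shallow compared with the stroma around them. The medians were 5657, 2242, 3260 and 2727 UMIs per cell in WT 1, WT 2, Z/Z 1 and Z/Z 2. Stromal comparison cells, which had 0 Ptprc UMIs and at least 1 UMI of Epcam, Pdgfra or Pecam1, had medians of 15097, 13101, 8941 and 8570. The members of each library summed to 117895, 62472, 12922 and 46702 UMIs. Called barcodes were shared between libraries of a genotype (202 between WT 1 and WT 2, and 249 between Z/Z 1 and Z/Z 2), but 0 members had a barcode called in another library. No member was among the 3.9% of cells of its library with the highest doublet score.

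Other T-lineage genes, which the rule did not use, were seen in most members, among them genes of the double-positive stage. Of 54 members, 52 had a UMI of Satb1, a chromatin organizer of thymocytes, 49 of Themis, which is needed for thymocyte selection, 51 of Cd247, the zeta chain of the receptor complex, and 41 of Arpp21, an RNA-binding protein abundant in double-positive cells. Cd8b1 was seen in 35 members, Cd8a in 31 and Cd4 in 30. Trac, Trbc1 or Trbc2, the constant regions of the alpha beta receptor, were seen in 46. In stromal comparison cells, which should lack these genes and were deeper, the share with a UMI over all libraries was 24.9% for Satb1, 13.6% for Themis, 11.7% for Arpp21, 4.35% for Cd4 and 2.51% for Cd8b1. The matching shares of members were 96.3%, 90.7%, 75.9%, 55.6% and 64.8%.

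These genes were also present as free mRNA, which was measured in empty droplets, that is, barcodes of 10 to 100 UMIs that were not called as cells. Themis was at 3079, 2673, 3173 and 1178 CPM in the members of WT 1, WT 2, Z/Z 1 and Z/Z 2, and at 1126, 1746, 52.7 and 402 CPM in the empty droplets of the same libraries. Cd8b1 was at 628, 496, 774 and 278 CPM in members and at 186, 285, 8.92 and 97.9 in empty droplets, so both genes were higher in members in each library. WT 2 was the closest library, and there Arpp21, at 1137 CPM in members and 1218 in empty droplets, and Bcl11b, at 1088 and 1124, were no higher in members. The part of free mRNA in single members was not tested.

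**Figure D1:**
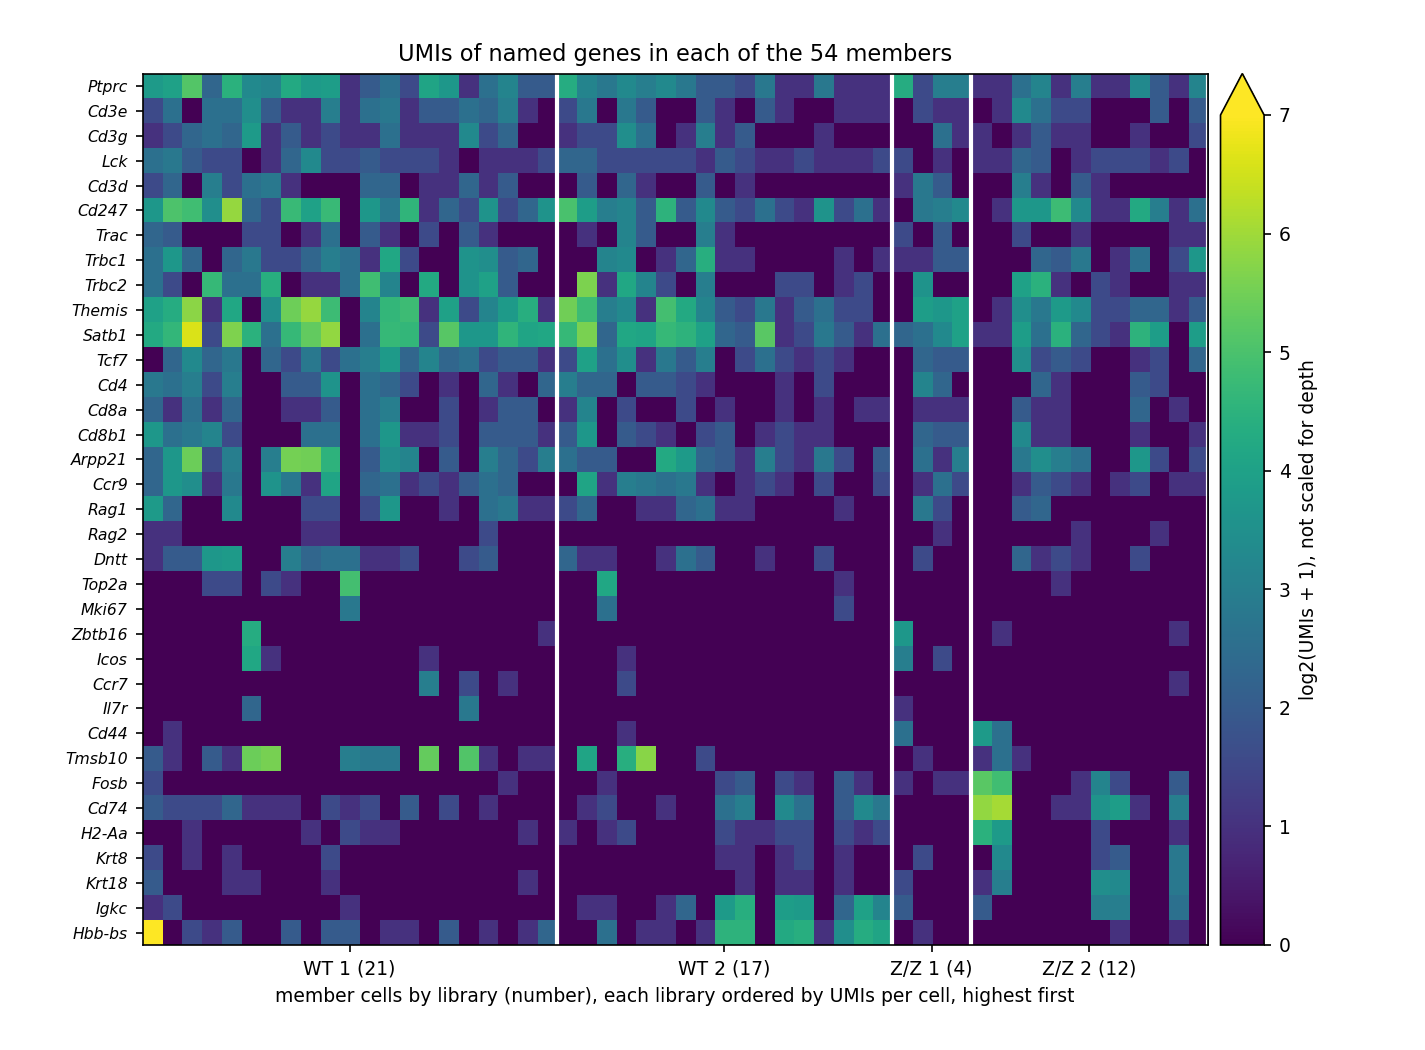
Each column is 1 of the 54 members, grouped by library and ordered within it by UMIs per cell, and each row is a gene; colour gives log2(UMIs + 1), capped at 7, with no scaling for depth. Themis and Satb1 were seen in nearly every column, while Cd74, Igkc and Hbb-bs stood out in a group of shallow WT 2 columns, Cd74 in 5 Z/Z 2 columns, and Hbb-bs in the first WT 1 column, at 2847 UMIs.

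The recombination genes were part of this picture. Rag1, which lies beside Rag2 on chromosome 2 (chr2:101638282-101649501), had 58, 20, 8 and 7 UMIs in WT 1, WT 2, Z/Z 1 and Z/Z 2, in 12, 9, 2 and 2 members. Dntt, the polymerase that adds nucleotides at receptor gene joints, had 62, 18, 2 and 10 UMIs in 14, 8, 1 and 5 members. At least 1 UMI of Rag1, Rag2 or Dntt was found in 38 of 54 members. Ptcra, which pairs with the beta chain before the double-positive stage, was seen in only 2, 1, 0 and 0 members, and Kit, a marker of the earliest progenitors, in 2, 0, 0 and 0. Alpha-chain joining segments were read in 11 of 21 members of WT 1, 1 of 17 of WT 2 and 0 of the 16 Z/Z members, of which the WT 1 members were the deepest.

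Of a list of 10 double-positive genes, with Cd4, Cd8b1, Arpp21, Rag1 and Ccr9 among them, at least 4 were seen in 16 of 21, 13 of 17, 3 of 4 and 5 of 12 members. At most 1 was seen in 2, 1, 1 and 3 members. Summed over the members of a library, the list was at 5573, 4018, 5185 and 2398 CPM in WT 1, WT 2, Z/Z 1 and Z/Z 2, against 158, 202, 209 and 285 in stromal comparison cells. In empty droplets it was at 2106, 3123, 332 and 886 CPM, below the member level of the same library in all 4 and closest to it in WT 2.

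The genes with the highest ratio of member level to the level in the other kept cells repeated this pattern, as a description of cells chosen by their T-cell mRNA. By the lowest ratio over the 4 libraries, genes near the top were Cd8b1 (25.2), Themis (23.1), Txk (22.8), Aqp11 (21.7), Cd4 (21.5), Skap1 (21.2), Ccr9 (21.0), Camk4 (21.0) and Sh2d1a (20.4), among 891 genes at 100 CPM or more in the members of every library. Txk is a kinase of the receptor pathway, and Sh2d1a is an adaptor of lymphocyte signalling receptors.

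**Figure D2:**
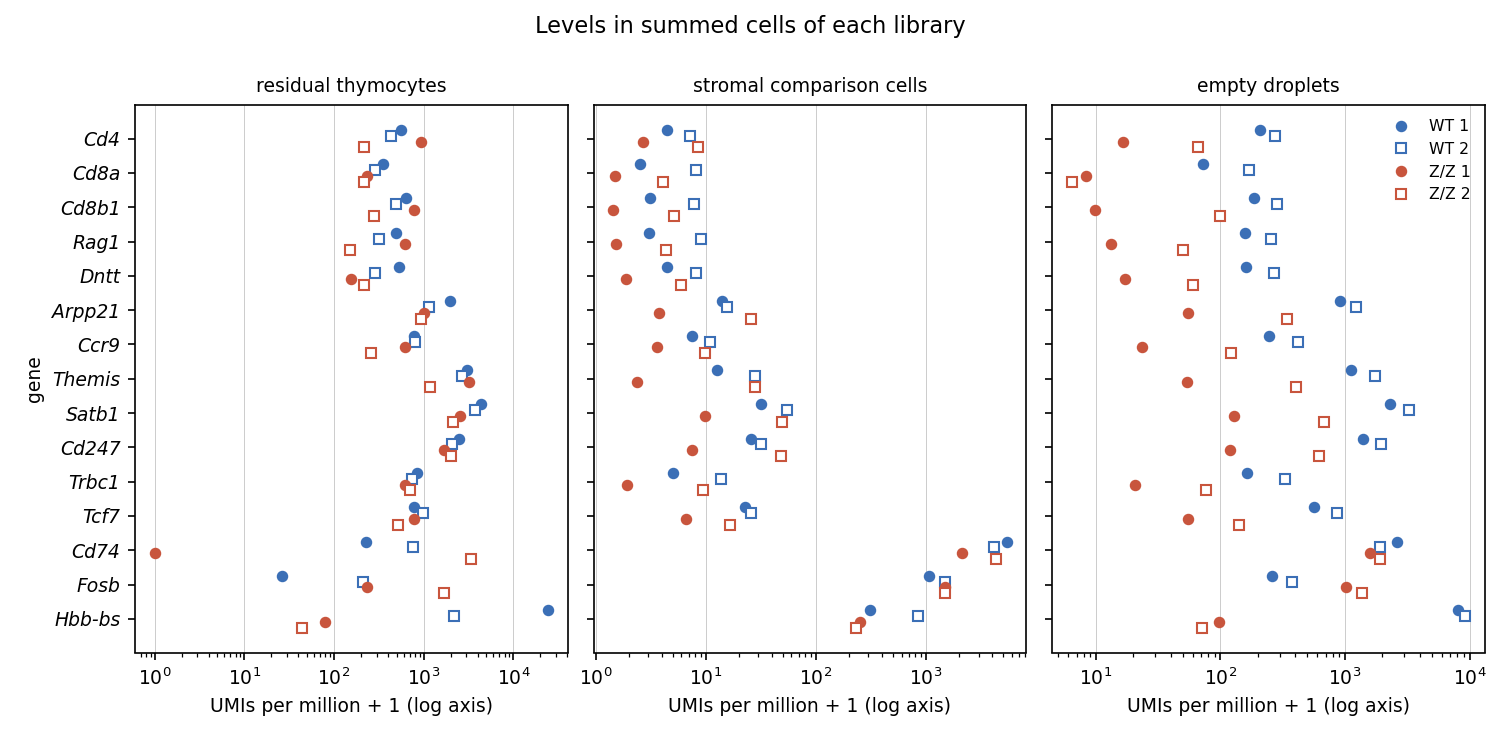
Levels of 15 genes in CPM + 1, on log axes, in summed members, summed stromal comparison cells and summed empty droplets of each library (blue, WT; red, Z/Z; filled circle, replicate 1; open square, replicate 2). T-lineage genes were higher in members than in stromal comparison cells in all 4 libraries, and in empty droplets they were higher in both WT libraries than in both Z/Z libraries.

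Receptors by which thymocytes read signals of the stroma were present unevenly. Ccr9, the receptor for the chemokine Ccl25 of cortical epithelium (chr9:123678439-123784330), had 92, 50, 8 and 12 UMIs in 17, 12, 3 and 8 members. Notch1, the receptor that commits progenitors to the T lineage, was seen in only 4, 0, 0 and 1 members, and Il7r, the interleukin-7 receptor, in 2, 0, 1 and 0. Cxcr4 was seen in 4, 1, 0 and 0. Notch1 was found in 37.0% to 45.6% of stromal comparison cells of the 4 libraries, which were deeper than members, and these shares were not matched for depth.

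Several genes of later steps were rare, while others of the same lists were not. Gimap6 and Foxo1, of the maturation and egress list, were seen in 26 and 19 of 54 members. Tox and Bcl2l11, of a positive selection list, were seen in 29 and 30. In stromal comparison cells, which were deeper, Gimap6, Foxo1, Tox and Bcl2l11 were seen in 20.5%, 51.2%, 32.4% and 27.6%. Ccr7, the receptor that guides selected thymocytes to the medulla, was seen in 3, 1, 0 and 1 members, S1pr1, needed for exit from the thymus, in 1, 0, 0 and 0, and Cd69, induced by receptor signalling, in 0, 1, 1 and 1. Zbtb7b, the factor of the CD4 lineage, had 0 UMIs in all members. Foxp3, the factor of regulatory T cells, was also seen in 0 of 54 members. For each gene this allows a share of members with a UMI of up to 5.56%, taken as 3 over the number of members. That limit pools the libraries, covers counting error only and does not apply to cells that express the gene below the depth of detection. The gamma delta T cell list, with the constant regions of that receptor, had 5, 1, 0 and 2 UMIs.

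A few members departed from the double-positive pattern, and some are described singly, chosen after their values were seen. In WT 1, 1 member of 7661 UMIs had 19 UMIs of Zbtb16, the factor of innate-like T cells, 17 of Icos, 10 of Cd3e and 13 of Cd3g, and 0 of the 10 double-positive genes. WT 1 members of 6777, 3432 and 3108 UMIs had 0 Cd4 UMIs. The first had 33 UMIs of Ikzf2, of the regulatory T cell list. The second had 35 of Ikzf2 and 7 of Ccr7. The third had 6 of Il7r and 2 of Ccr7. The stage of these cells was not tested. In Z/Z 1, 1 of the 4 members had 12 Zbtb16 UMIs, 19 Ptprc UMIs and 0 double-positive genes. It had 0 UMIs of Cd3e and Cd3g and passed on 2 Lck UMIs, with 1 UMI of Cd3d, 2 of Trac and 1 of Trbc1. The lineage of this cell was not tested. Dividing cells were seen in WT 1, with 29 Top2a and 6 Mki67 UMIs in a member, and in WT 2, with 17 and 5. At least 3 of 12 cell cycle genes were seen in 3 members of WT 1, 1 of WT 2 and 0 of the 16 Z/Z members, which were shallower than those of WT 1. By the same limit over pooled cells, a count of 0 of 16 allows a share of up to 18.8% of members in which 3 such genes are seen at this depth. In the mouse thymus, innate-like T cells are a minor lineage that arises from double-positive cells.

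A group of 11 members carried few UMIs of T-cell genes together with mRNA of other lineages. These were the members with 5 or more UMIs of Cd74, the invariant chain of MHC class II, a limit set after the data were seen. WT 2 held 6 of them and Z/Z 2 held 5, and the other libraries held 0. Their median was 1 Ptprc UMI, 2 UMIs of Cd3e, Cd3g and Lck together and 2 Themis UMIs. The other 43 members had medians of 7, 7 and 10, and were deeper, with a median of 3676 UMIs per cell against 2242. Igkc, an immunoglobulin light chain of B-lineage cells, was seen in 10 of the 11 and in 9 of the 43, and the keratins Krt8 or Krt18 in 9 of the 11 and 9 of the 43.

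The 6 such cells of WT 2 and the 5 of Z/Z 2 differed from each other. In WT 2 they had a median of 10.6% mitochondrial UMIs and 1919 UMIs per cell, against 4676 in the other 11 members of that library. Of these 6, 5 had an Arpp21 UMI and 6 a UMI of Trac, Trbc1 or Trbc2, which 8 of the other 11 had. In Z/Z 2 the depth was alike, with medians of 2723 UMIs in the 5 and 2731 in the other 7, while the medians were 1 and 7 Ptprc UMIs and 1 and 6 Themis UMIs. Of the 5 in Z/Z 2, 0 had an Arpp21 UMI and 0 had both Cd4 and Cd8, and 2 of them were deep cells of 10764 and 8539 UMIs with 57 and 66 Cd74 UMIs, 21 and 13 UMIs of the MHC class II gene H2-Aa, and 1 Ptprc UMI each. Those 2 cells passed the rule but went against its label. The rest of the 5 each had 1 Ptprc UMI and passed on 2 Lck UMIs, with 0 of Cd3e and Cd3g. They had 10, 9 and 6 Krt18 UMIs and 11, 14 and 7 Cd74 UMIs, but also a UMI of Trac, Trbc1 or Trbc2. At least 4 of the 10 double-positive genes were seen in 0 of the 5, and the lineage of these cells was not tested. Without the 11 cells, 21, 11, 4 and 7 members remained, of which 34 of 43 showed at least 4 of the 10 double-positive genes.

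Stromal mRNA in the members was set beside that in empty droplets. The summed level of the epithelial, fibroblast and endothelial marker lists was 237, 1056, 310 and 1413 CPM in the members of WT 1, WT 2, Z/Z 1 and Z/Z 2, and 2202, 1638, 3158 and 2985 in empty droplets. The ratio was 10.8%, 64.5%, 9.80% and 47.3%, so the libraries with the highest ratio were those that held the 11 Cd74-high members.

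The share of residual thymocytes was lower in both Z/Z libraries than in both WT libraries. Members made up 1.38% of kept cells in WT 1 (21 of 1517, exact Clopper-Pearson 95% interval 0.859% to 2.11%) and 3.59% in WT 2 (17 of 474, 2.10% to 5.68%). They made up 0.0863% in Z/Z 1 (4 of 4636, 0.0235% to 0.221%) and 0.332% in Z/Z 2 (12 of 3618, 0.171% to 0.579%). The groups did not overlap, and the intervals of WT and Z/Z libraries did not overlap either. Those intervals cover the counting error of cells only, and not the spread between libraries. The means were 2.49% ± 1.56 and 0.209% ± 0.174 (SD, n = 2 each), a difference of -2.28 percentage points, with a two-sided exact permutation p of 0.33, the smallest that 2 against 2 libraries can give. Without WT 2, the library with the fewest kept cells and the highest share, the difference was -1.18 points. In WT 1, WT 2, Z/Z 1 and Z/Z 2, 66, 162, 212 and 76 kept cells had a barcode shared between libraries. Without these cells the shares were 1.45%, 5.45%, 0.0904% and 0.339%.

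**Figure D3:**
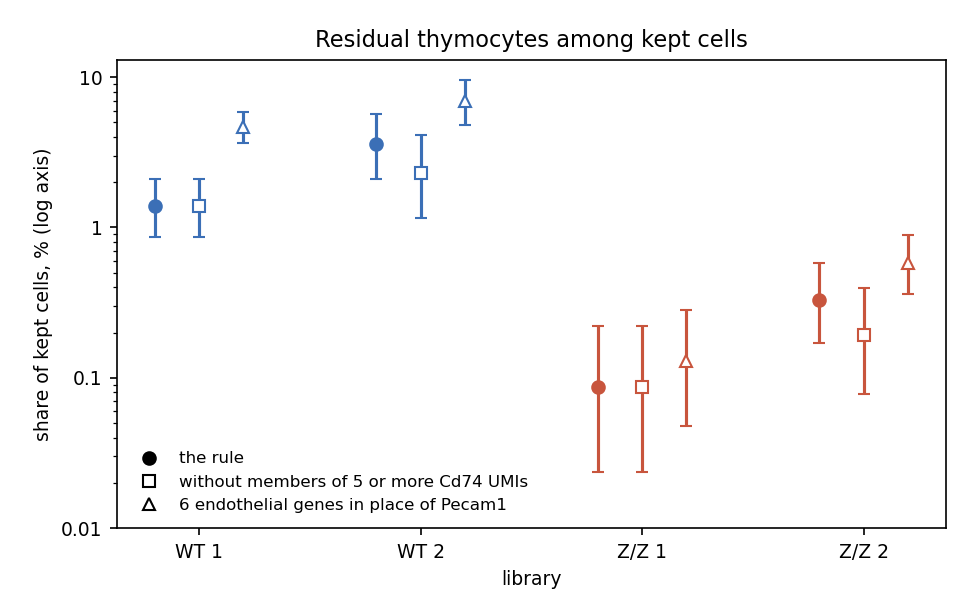
Share of kept cells that were members, in percent on a log axis, for each library, with exact 95% binomial intervals; filled circles follow the rule, open squares leave out members of 5 or more Cd74 UMIs, and open triangles use 6 endothelial genes in place of Pecam1. Both WT libraries lay above both Z/Z libraries with each of the 3 definitions.

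The denominator of these shares is stroma, and it differed between libraries, so the share was also taken within CD45 mRNA-positive cells. Kept cells with a Ptprc UMI numbered 286, 161, 69 and 756. Of these, 33.9%, 34.8%, 15.9% and 8.73% had at least 2 UMIs of Cd3e, Cd3g and Lck, whatever their stromal genes, and again the groups did not overlap (difference -22.0 percentage points, two-sided exact permutation p = 0.33, the smallest possible). Of the cells with Ptprc and at least 2 of these T-cell UMIs, 25, 20, 4 and 32 also had a UMI of Epcam or Pdgfra. Their medians were 55725, 14690, 65957 and 18124 UMIs per cell, so this denominator was not free of stromal or mixed cells. Under the full rule the shares were 7.34%, 10.6%, 5.80% and 1.59%, a difference of -5.26 percentage points (two-sided exact permutation p = 0.33). Here the exact interval of Z/Z 1, with 4 members, was 1.60% to 14.2%. It covered that of WT 1 (4.60% to 11.0%) and overlapped that of WT 2 (6.27% to 16.4%). Only the interval of Z/Z 2 (0.823% to 2.76%) lay below both WT intervals.

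T-cell mRNA was also measured in empty droplets of the same suspensions, in part by the genes that chose the members. The 12 genes were Ptprc, Cd3e, Cd3g and Lck of the rule, with Cd3d, Cd247, Trac, Trbc1, Trbc2, Cd4, Cd8a and Cd8b1. Their summed level was 3402 and 5114 CPM in WT 1 and WT 2, and 310 and 1316 in Z/Z 1 and Z/Z 2. The means were 4258 ± 1210 and 813 ± 711 (SD, n = 2 each, two-sided exact permutation p = 0.33). Of genes outside the rule, Cd3d, Cd247, Trac, Trbc1 and Trbc2 together were at 1770, 2662, 163 and 772 CPM in WT 1, WT 2, Z/Z 1 and Z/Z 2. The beta-globin gene Hbb-bs, a red cell transcript, differed in the same direction in empty droplets, at 8084 and 9255 CPM in WT and 96.5 and 70.7 in Z/Z. Red cells are not thymocytes, and the part that handling of the suspensions had in either difference was not tested.

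The requirement of 0 Pecam1 UMIs touched more cells than the rule kept. Pecam1 encodes the adhesion molecule CD31 (chr11:106654217-106750628), which marks endothelium and is also carried by some blood cells. Cells with Ptprc and at least 2 UMIs of Cd3e, Cd3g and Lck numbered 97, 56, 11 and 66, and 76, 39, 7 and 54 of these were refused for a UMI of Epcam, Pdgfra or Pecam1. A Pecam1 UMI was present in 68, 27, 5 and 38 of them, against 21, 17, 4 and 12 members, and Pecam1 alone refused 51, 19, 3 and 22.

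In WT, the cells refused for Pecam1 alone looked like members. Themis was seen in 48 of 51 in WT 1 and 19 of 19 in WT 2, Cd4 in 39 and 15, and Cd8b1 in 39 and 13. Any of 6 other endothelial genes (Cdh5, Plvap, Emcn, Kdr, Tie1 and Egfl7) was seen in only 1 of 51 and 2 of 19. In Z/Z 1 and Z/Z 2 the same endothelial genes were seen in 1 of 3 and 9 of 22. Among stromal comparison cells with a Pecam1 UMI they were seen in 51.9%, 47.1%, 72.4% and 67.1%. These 6 genes were chosen after the data were seen.

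With the 6 endothelial genes in place of Pecam1, 71, 33, 6 and 21 cells were found, or 4.68%, 6.96%, 0.129% and 0.580% of kept cells, and the difference in the share of residual thymocytes was -5.47 points. The share in WT therefore moved more with this choice than that in Z/Z 1 or Z/Z 2, in percentage points.

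**Figure D4:**
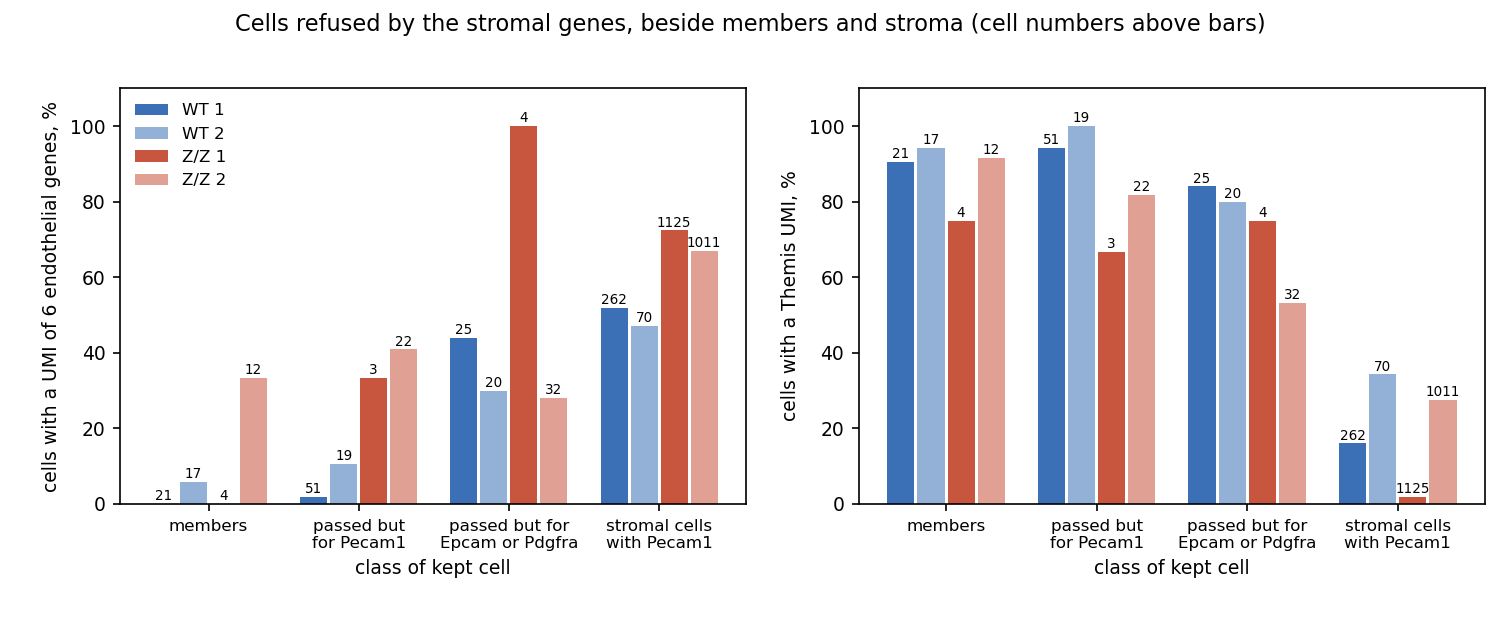
Percent of cells with a UMI of any of 6 endothelial genes (left) and with a Themis UMI (right), for members, for cells that passed but for Pecam1, for cells that passed but for Epcam or Pdgfra, and for stromal comparison cells with Pecam1; bars are libraries, and the number above each is its cells. WT cells refused for Pecam1 alone were near members in both panels, with 48 of 51 and 19 of 19 showing Themis.

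CD4 and CD8 classes were compared after each member was thinned to 1500 UMIs, since shares of cells with a UMI depend on depth, and 0 members were too shallow for it. Cd4 together with Cd8a or Cd8b1 was then seen in 10 of 21 members of WT 1, 6 of 17 of WT 2, 1 of 4 of Z/Z 1 and 3 of 12 of Z/Z 2. These are 47.6%, 35.3%, 25.0% and 25.0%, with exact 95% intervals of 25.7% to 70.2%, 14.2% to 61.7%, 0.631% to 80.6% and 5.49% to 57.2%. The intervals all overlapped, and the difference between means of 41.5% ± 8.72 and 25.0% ± 0 (SD, n = 2 each) was -16.5 percentage points, with a two-sided exact permutation p of 0.33, the smallest possible. This difference rested on the random draw of UMIs. Over 100 draws, a check added after the data were seen, the double-positive share of residual thymocytes averaged 38.7%, 24.0%, 45.0% and 17.2% in WT 1, WT 2, Z/Z 1 and Z/Z 2, so the groups overlapped. The difference ran from -24.8 to 13.2 points with a mean of -0.25, and Z/Z was the higher in 52 of the 100 draws. With all UMIs the shares were 71.4%, 47.1%, 50.0% and 25.0%, and the groups overlapped. Without the 11 Cd74-high members the mean over draws was 2.52 points, and Z/Z was the higher in 57 of 100. Where at least 3 UMIs of Cd3e, Cd3g and Lck were required, which left 1 member in Z/Z 1, Z/Z was the higher in 86 of 100. A difference in this share was not detectable with these numbers of cells.

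In the same single draw, cells with Cd4 alone numbered 2, 2, 0 and 1, those with Cd8 alone 4, 3, 2 and 1, and those with neither 5, 6, 1 and 7. Z/Z 2 had the most members with neither, and with all its UMIs 0 of its 5 Cd74-high members showed both. In stromal comparison cells thinned in the same way, Cd4 and Cd8 were seen together in 0.0963% of cells of WT 1 and 1.09%, 0% and 0.0890% of the others, where 0 of 3316 cells in Z/Z 1 allows a share of up to 0.0905% of cells with both at this depth.

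**Figure D5:**
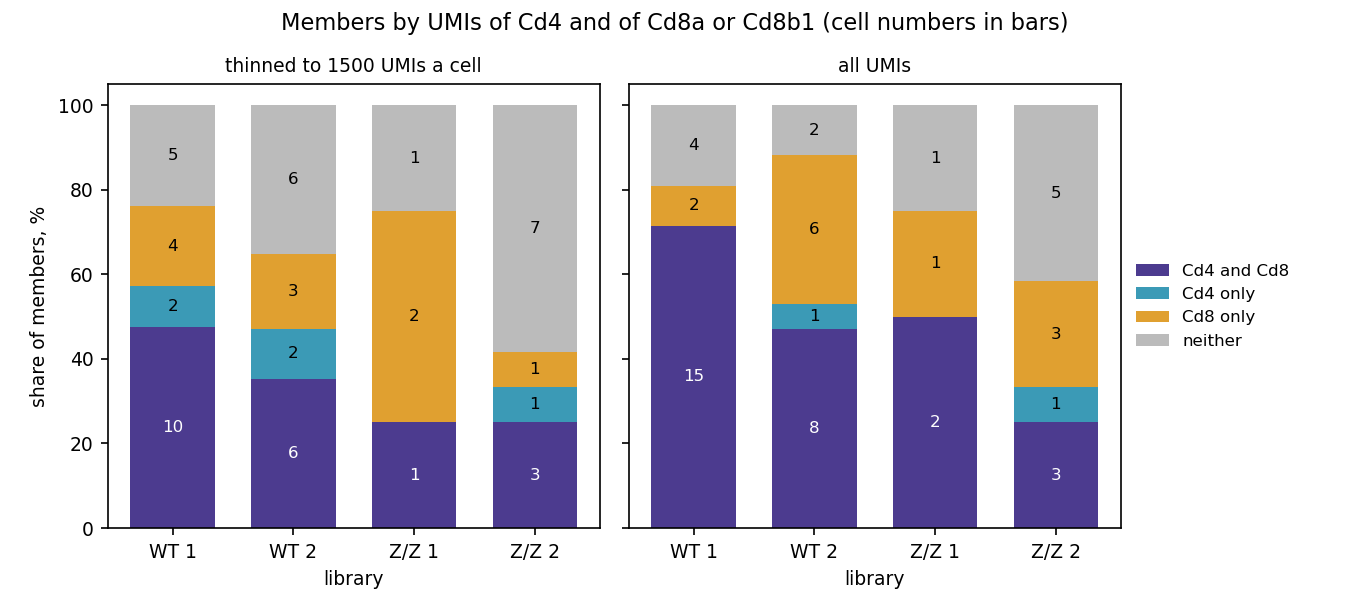
Members of each library by their UMIs of Cd4 and of Cd8a or Cd8b1, as a percent of members, with numbers of cells in the bars; cells were thinned to 1500 UMIs in 1 random draw on the left and hold all UMIs on the right. Cells with both made up 47.6%, 35.3%, 25.0% and 25.0% in that draw, and the order of the groups changed with the draw.

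Gene levels within the members did not separate the genotypes beyond the spread between libraries. UMIs were summed over the members of each library, and 1215 genes passed the filter on low counts. The edgeR quasi-likelihood test found 0 genes past an adjusted p of 0.05 (0%), with 66 at an unadjusted p under 0.05, and DESeq2 found 0, with 29. On the levels as scaled by edgeR for this test, the 2 WT and 2 Z/Z values did not overlap for 447 genes (36.8%). Of these, 200 (16.5%) were higher in Z/Z and 247 (20.3%) lower. The count of calls depended on single libraries. Without Z/Z 1, which rests on 4 cells, 133 genes were called, and without Z/Z 2, with its Cd74-high cells, 31. Without WT 1, 1 gene was called, the nuclear RNA Malat1, and without WT 2, 0.

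The T-lineage genes illustrate the spread. Themis had 363, 167, 41 and 55 UMIs in WT 1, WT 2, Z/Z 1 and Z/Z 2, or 3079, 2673, 3173 and 1178 CPM. Z/Z 1 was the highest and Z/Z 2 the lowest, so the groups overlapped (log2 fold change of Z/Z over WT -0.48, SE 0.53, edgeR adjusted p = 0.926). Cd8b1 had 74, 31, 10 and 13 UMIs, or 628, 496, 774 and 278 CPM, with the same order at both ends (-0.24, SE 0.61, edgeR adjusted p = 0.963). Satb1 (chr17:51736187-51833290) had 508, 232, 33 and 99 UMIs, or 4309, 3714, 2554 and 2120 CPM. Both Z/Z values were below both WT values, but the difference did not pass the threshold (-0.74, SE 0.48, edgeR adjusted p = 0.834).

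By list, 7 of the 10 double-positive genes were tested and 0 passed in either direction, and all 7 log2 fold changes were below 0 (median -0.43), against 51.9% of all genes tested (median -0.03). Groups did not overlap for 3 of the 7, all lower in Z/Z, a direction in which 20.3% of all genes tested did not overlap, and 5 of the 12 Z/Z 2 members were Cd74-high. Of 5 genes of the receptor complex 5 were tested and 0 passed (median -0.19), with Cd247 at 2451, 2065, 1703 and 2013 CPM and Trbc1 at 840, 736, 619 and 707. Of 12 genes of proximal receptor signalling 9 were tested and 0 passed (median 0.19), with Skap1, an adaptor of that pathway, at 2265, 2369, 3250 and 1692. Of 10 T-cell transcription factors 8 were tested and 0 passed (median -0.44), with Tcf7, which sustains the T-cell programme, at 780, 992, 774 and 514, and Bcl11b, which fixes T-cell identity, at 1204, 1088, 1548 and 364. Of 12 maturation and egress genes only Gimap6 passed the filter on low counts (log2 fold change 1.55, edgeR adjusted p = 0.797), and of 12 cell cycle genes only Top2a.

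Survival genes did not pass the threshold either. Bcl2l1 encodes Bcl-xL, which keeps double-positive cells alive, and had 36, 17, 0 and 7 UMIs in 15, 9, 0 and 5 members (-1.24 on the log2 scale, edgeR adjusted p = 0.834). Of 8 survival and death genes 3 were tested and 0 passed. Fkbp5, a target of the glucocorticoid receptor, had 45, 21, 4 and 4 UMIs, or 382, 336, 310 and 85.6 CPM. Of 7 glucocorticoid response genes 3 were tested and 0 passed.

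The genes with the smallest p-values rested on few cells. Tmsb10, which encodes an actin-binding thymosin, had 191, 91, 1 and 7 UMIs, and 161 of the 191 in WT 1 lay in 4 members and 89 of the 91 in WT 2 in 3. The 4 members of WT 1 were that of 7661 UMIs with Zbtb16 and those of 6777, 3432 and 3108 UMIs described above. No Z/Z member had 10 or more Tmsb10 UMIs (log2 fold change -3.44, SE 0.65, edgeR adjusted p = 0.258). It was past the threshold when members were limited to under 10% mitochondrial UMIs (adjusted p = 0.0380), to at least 3 T-cell UMIs (0.0144) or to fewer than 5 Cd74 UMIs (0.00798), the last without the 11 cells described above. Top2a, a topoisomerase of dividing cells, had 36, 18, 0 and 1 UMIs, of which 29 and 17 lay in the 2 dividing members (-3.87, SE 0.97, edgeR adjusted p = 0.455).

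A list of 12 immediate early and heat shock genes, which respond to stimulation and to tissue handling, was at 1934, 2097, 1625 and 12312 CPM in the members of WT 1, WT 2, Z/Z 1 and Z/Z 2. Of its 575 UMIs in Z/Z 2, 560 lay in the 5 Cd74-high members, and the other 7 were at 749 CPM. In WT 2, 76 of 131 lay in its 6 Cd74-high members, and the other 11 were at 1074 CPM. All 7 tested genes, of which Hspa1a, Hspa1b and Hspa8 encode heat shock proteins, had positive log2 fold changes and 0 passed (median 1.47). Fosb had 3, 13, 3 and 78 UMIs, and 77 of the 78 in Z/Z 2 lay in the 5 Cd74-high members. In empty droplets the list was at 3389, 3523, 13029 and 16838 CPM, and in stromal comparison cells at 11610, 14691, 19846 and 16190.

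A change in members that differed from that in stroma was found for 1 of 1215 genes (0.0823%), Cd44, an adhesion receptor of activated T cells and of many stromal cells (chr2:102811141-102901665). Cd44 had 1, 1, 5 and 18 UMIs in the members of WT 1, WT 2, Z/Z 1 and Z/Z 2, and was at 238, 278, 176 and 165 CPM in stromal comparison cells. The interaction of cell class and genotype was 5.70 on the log2 scale (SE 0.75, edgeR adjusted p = 0.0407). The 5 UMIs of Z/Z 1 lay in the member with Zbtb16, and the 18 of Z/Z 2 in the 2 deep Cd74-high cells. Without the Cd74-high members Cd44 did not pass the filter on low counts, and without Z/Z 2 it did not either.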

How the data were processed

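Droplet 3′ single-cell RNA-seq of CD45-depleted thymic cells was analysed in 4 libraries, 2 per genotype. The authors used Cell Ranger 7.0.1 with an mm10 reference, and the deposited files hold UMI counts of each gene in each barcode, for called cells and for all barcodes listed. Counts were not normalized. Saturation, 65.2% to 95.2% per library, is a percent taken from the deposited summaries. The labels name v2 chemistry and other methods text a v3 chip. Members, gene lists and tests were chosen with earlier results of these data known. Named genes were list members, leading genes, and up to 10 genes in each direction past the threshold, of which there were 0. Genes singled out otherwise are said to be so, or are the smallest p-values. Some list members and leading genes are not reported here.

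Kept cells had more than 1000 genes and under 20% mitochondrial UMIs. Doublets were scored with Scrublet in scanpy 1.11.5, and removing the top 3.9% was an alternative. UMIs were summed over the members of each library and tested with edgeR 4.0.16 (TMM, filterByExpr, quasi-likelihood, Benjamini-Hochberg), leaving out 105 ribosomal protein and haemoglobin features. DESeq2 1.42.0 was an alternative. Levels are CPM of the cells summed, which count all features. Counts of genes without overlap between groups used TMM-scaled levels instead. On that scale the groups overlapped for Cd247 and Trbc1, though not in the CPM given. Libraries, not cells, were the replicates. Shares were compared by exact permutation of libraries. Same-numbered libraries were not treated as pairs. Their deviations from the group mean correlated at 0.0619. With 2 libraries a group, both pairs must give the same value, so it cannot decide whether libraries were paired. The comparison of members between genotypes was also run on simulated counts, in which 1035 genes passed the filter. The test recovered 48 of 79 genes of 4-fold and 78 of 83 of 8-fold change, with 2 false calls. The simulated spread between libraries was fixed and not taken from the data, so these numbers do not give the power in the members. There, Top2a at a log2 fold change of -3.87 did not pass (edgeR adjusted p = 0.455). Positions are from GENCODE on GRCm38.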

Additional observations from a re-analysis of the deposited data

Results flagged for a closer look

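Cd44 was singled out because its genotype difference in residual thymocytes and in stromal cells of the same libraries differed by the test of the interaction, at 5.70 on the log2 scale (edgeR adjusted p = 0.0407). Over the alternatives in which it could be tested the interaction was between 2.48 and 5.81, and its adjusted p between 3.78e-07, without Z/Z 1, and 1.0, without WT 2. It rested on 25 UMIs in 5 of 54 members. No group had the 4 libraries that a test for a library far from the others needs.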

How the results depend on the processing

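The difference in the share of residual thymocytes kept its direction under all 13 alternatives, between -1.18 and -3.38 points when a library was left out. The double-positive share of residual thymocytes differed by -16.5 points in 1 thinning draw and by -0.25 as the mean of 100 draws, with Z/Z higher in 52 of them. Within the single draw it was -12.6 without the Cd74-high members, -10.4 with the endothelial genes in place of Pecam1, -8.89 when thinned to 1000 UMIs in another draw, and between -10.3 and -22.6 without single libraries, so that none of these shows a stable direction. Genes called in members were 3 under 10% mitochondrial UMIs, 2 with at least 3 T-cell UMIs, 1 without the Cd74-high members, 30 with no filter on low counts, and 0 to 133 without single libraries. Called interactions were 0 with more than 500 genes per cell, under 10% mitochondrial UMIs, without shared barcodes, with the endothelial genes in place of Pecam1, without the Cd74-high members, thinned, with DESeq2 size factors and with no filter, 3 with at least 3 T-cell UMIs, 13 with DESeq2, and 0 to 142 without single libraries. The Cd74 log2 fold change was between -7.93 and 2.99 without single libraries, below 0 only without Z/Z 2. With the replicate block 0 genes were called, as without it, with 43 at an unadjusted p under 0.05. Where a library was left out, the lone library of its group was assumed to vary like the other group. The causes of these moves were not tested. Choices of the endothelial genes, the Cd74 limit and the repeated draws were made after seeing the data. Depth limits all of this, with 4 members in Z/Z 1.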
